A study of Mus musculus with 2 samples.

Results

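Vwf-high endothelial cells were examined in single-cell RNA libraries of mouse lung. They were chosen by their own transcripts: barcodes with at least 200 genes and at most 15% mitochondrial molecules, at least 2 molecules of Cdh5, Pecam1 and Cldn5 together, at most 1 each of Ptprc, Epcam and Sftpb, 0 of the platelet genes Itga2b, Gp9 and Ppbp, 0 of the lymphatic genes Prox1 and Mmrn1, and at least 3 of Vwf. This rule found 537 cells among 26917 barcodes. Of these, 239 came from lungs of mice given the S100A4-11 antibody and 298 from lungs of mice given IgG. All mice were BALB/c and carried tumours of 4T1 cells, a mouse mammary carcinoma line, in the mammary fat pad, and lungs were taken on day 14 after inoculation. Each group had 1 library, and the number, age and sex of the animals behind it are not stated. The series title names S100A4 inhibition and the pre-metastatic niche of the lung as its subject. The extraction protocol speaks of tumour tissue, whereas titles, source and tissue labels say lung.

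Von Willebrand factor, the product of Vwf, is a large adhesive glycoprotein that endothelial cells store in Weibel-Palade bodies and release to capture platelets. In the lung it is made mainly in arteries, veins and their larger branches, while most alveolar capillary cells make little. Arterial endothelium is known for Notch signalling, the connexins encoded by Gja5 and Gja4, and the kinase Bmx. Venous endothelium is known for the nuclear receptor Nr2f2, and lung venous endothelium also for the noradrenaline transporter Slc6a2.

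The remaining cells that met every limit except that on Vwf are called other endothelial-gated cells, 2774 in the S100A4-11 library and 3598 in the IgG library. A UMI is 1 counted RNA molecule, and CPM is UMIs of a gene per 1000000 UMIs summed over the named cells of a library. Values in parentheses after a level or a share are exact 95% Poisson or binomial intervals. Ratios carry exact conditional intervals. All of these cover counting error only. With 1 library a group no difference between S100A4-11 and IgG has a replicate check, and no test was made. A gene is said to pass the fold when its ratio is at least 1.5 in either direction with an interval that excludes 1.

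The S100A4-11 library held 12506 barcodes and 64695542 UMIs, and the IgG library 14411 barcodes and 85458143 UMIs. The Vwf-high cells had a median of 5766 UMIs in the S100A4-11 library and 6150 in the IgG library, against 3457 and 3580 in the other endothelial-gated cells. The libraries shared 266 barcodes, of which 0 were among the Vwf-high cells. Scrublet, a doublet caller, marked 4 S100A4-11 and 1 IgG Vwf-high cells, which were kept. S100a4, the gene of the antibody's target, had 6 UMIs in 4 S100A4-11 Vwf-high cells and 6 UMIs in 2 IgG Vwf-high cells, or 3.21 and 2.33 CPM.

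Vwf is a plus-strand gene of chromosome 6 (GRCm38, 125546774 to 125686679). Vwf-high cells made up 7.93% (6.99 to 8.96) of endothelial-gated cells in the S100A4-11 library and 7.65% (6.83 to 8.53) in the IgG library, a ratio of 1.04 (0.871 to 1.23). The share was thus alike within counting error. Because a deeper cell is more likely to reach 3 Vwf UMIs, every cell was also thinned to 1000 UMIs, which left out 291 S100A4-11 and 318 IgG cells as too shallow. Then 3.27% of S100A4-11 cells (89 of 2722) and 2.60% of IgG cells (93 of 3578) reached the limit, a ratio of 1.26 (0.93 to 1.70).

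Vwf itself was spread widely among the cells it had selected. The median cell had 7 Vwf UMIs in the S100A4-11 library and 9 in the IgG library, and the highest cells had 111 and 134. Cells with 15 or more Vwf UMIs numbered 71 in the S100A4-11 library and 93 in the IgG library, and held 72.5% and 68.5% of all Vwf UMIs of the Vwf-high cells. At the edge of the rule, 45 S100A4-11 and 51 IgG cells held exactly 3 Vwf UMIs, and 45 and 70 cells held 2. Slc6a2 was at 41.1 and 24.7 CPM in S100A4-11 and IgG cells with exactly 3, and at 25.3 and 13.9 CPM in S100A4-11 and IgG cells with 2. Free RNA in the droplets can give UMIs to cells that do not express a gene. In neutrophil-gated cells, which should lack Vwf, 1.79% of S100A4-11 and 2.12% of IgG cells had a Vwf UMI, at median depths of 4291 and 4544 UMIs. The share was higher in deeper gates. It was 8.54% and 10.0% in monocyte- or macrophage-gated cells, at median depths of 7899 and 8485 UMIs. In epithelial-gated cells it was 5.36% and 5.46%, at 9243 and 9664 UMIs. How far these UMIs are free RNA was not tested.

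The label of large-vessel endothelium was met in part. Gja5 was detected in 29.7% of S100A4-11 and 30.2% of IgG Vwf-high cells, against 4.83% and 6.67% of the other endothelial-gated cells. Nr2f2 was detected in 35.6% of S100A4-11 and 37.9% of IgG Vwf-high cells, against 7.17% and 12.3% of the other cells. Slc6a2 was detected in 32.2% and 36.6% of Vwf-high cells, against 0.324% and 0.806% of the others. In the neutrophil gate Gja5 was found in 0.781% and 0.929% of cells, Nr2f2 in 2.27% and 3.75%, and Slc6a2 in 0.112% and 0.0664%. The shares among Vwf-high cells lay above those of this gate. Nr2f2 was found in 25.3% and 26.2% of epithelial-gated and in 77.0% and 79.2% of mesenchymal-gated cells. Gja5 was found in 17.6% and 16.3% of mesenchymal-gated cells, and Slc6a2 in 1.09% and 0.429%. At the same time Plvap, a diaphragm protein of fenestrae and caveolae, was detected in 92.1% of S100A4-11 and 91.9% of IgG Vwf-high cells. It was detected in 74.2% and 71.8% of the other endothelial-gated cells. Its level was 2374 against 2677 CPM in the S100A4-11 library and 2223 against 2058 CPM in the IgG library. Gpihbp1, which carries lipoprotein lipase on capillary endothelium, was detected in 79.9% and 82.9% of Vwf-high cells, against 79.0% and 75.1% of the others. The cells are therefore named here by their Vwf count and not as a vessel type.

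Cells with more Vwf held more RNA of venous genes and less of the capillary receptor gene Kit. Slc6a2 (chromosome 8, 92960079 to 93001667, plus strand) stood at 59.3, 120 and 680 CPM in S100A4-11 cells with 3 to 4, 5 to 14 and 15 or more Vwf UMIs. In IgG cells of the same steps it stood at 35.3, 110 and 606 CPM. Nr2f2 (chromosome 7, 70351944 to 70366735, minus strand) stood at 57.7, 137 and 374 CPM in S100A4-11 cells and at 65.9, 122 and 286 CPM in IgG cells. Both venous genes were highest in the top step of both libraries. Vcam1, an adhesion molecule for lymphocytes and monocytes, stood at 37.4, 175 and 501 CPM in the S100A4-11 steps and 28.9, 120 and 287 CPM in the IgG steps. Selp, which encodes P-selectin and is stored with Vwf in Weibel-Palade bodies, stood at 45.2, 50.2 and 202 CPM in the S100A4-11 steps and 56.2, 51.5 and 149 CPM in the IgG steps.

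Arterial genes were flatter across the steps. Gja5 (chromosome 3, 96904693 to 97077416, plus strand) was at 67.0, 88.2 and 116 CPM in the S100A4-11 steps and 48.2, 105 and 95.4 CPM in the IgG steps. Bmx was at 49.9, 54.8 and 79.0 CPM in the S100A4-11 steps and 43.4, 52.5 and 41.5 CPM in the IgG steps. Gja4 was at 398, 298 and 283 CPM in the S100A4-11 steps and 310, 286 and 242 CPM in the IgG steps. Efnb2, the ephrin ligand of arterial endothelium, was lowest in the top step, at 306 CPM in S100A4-11 cells and 361 CPM in IgG cells. Its venous receptor Ephb4 hardly moved, at 276, 265 and 309 CPM in the S100A4-11 steps and 262, 272 and 295 CPM in the IgG steps. Kit, a receptor of general capillary cells, was at 515, 396 and 181 CPM in the S100A4-11 steps and at 554, 380 and 242 CPM in the IgG steps. Car4, a carbonic anhydrase of the gas-exchange aerocytes, was at 518, 417 and 130 CPM in the S100A4-11 steps and at 500, 272 and 281 CPM in the IgG steps. Lyve1, a hyaluronan receptor best known from lymphatics but also present in lung blood endothelium, was at 833, 1108 and 1842 CPM in the S100A4-11 steps and at 731, 1126 and 1362 CPM in the IgG steps. Kit was thus lowest, and Lyve1 highest, in the top step of both libraries.

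**Figure D1:**
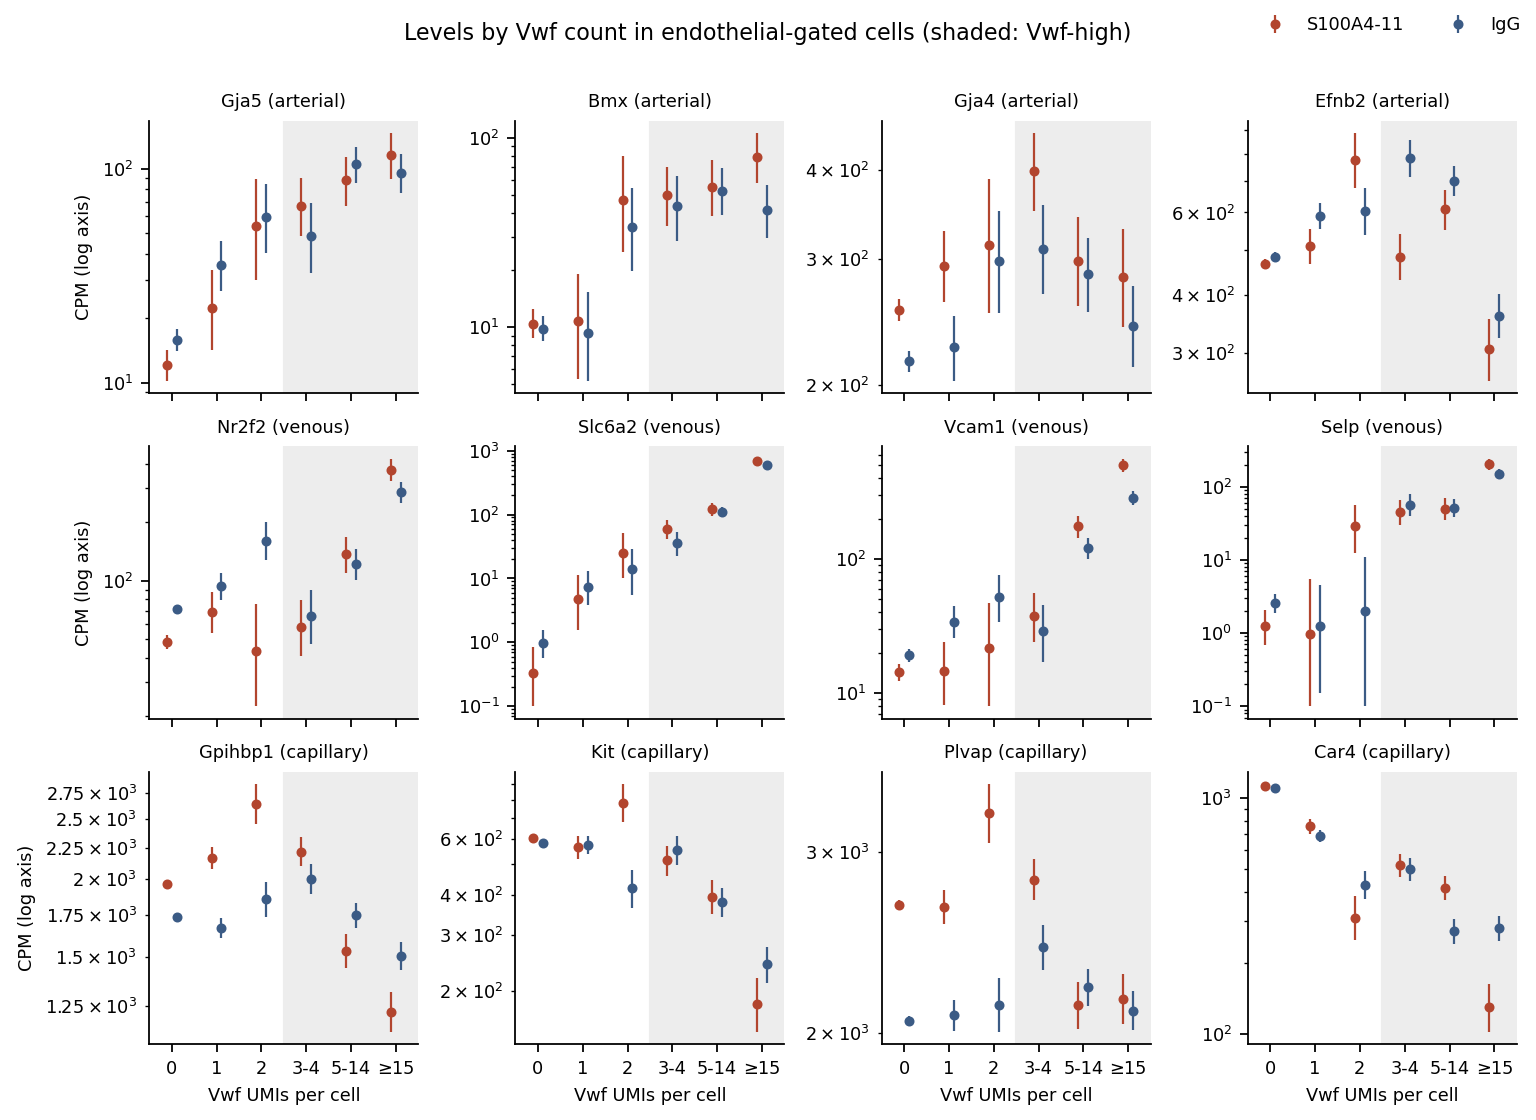
Levels of 12 genes in CPM (log axes that differ in range) by the number of Vwf UMIs per cell, with S100A4-11 points left of IgG points and exact Poisson intervals as bars; values and interval ends under 0.1 CPM are drawn at 0.1. In the shaded Vwf-high steps Slc6a2 reaches 680 and 606 CPM in S100A4-11 and IgG cells with 15 or more Vwf UMIs, while Kit is down at 181 and 242 CPM.

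RNA of wall cells was highest in the top step. The summed level of 9 fibroblast, pericyte and smooth muscle genes was 529, 513 and 1101 CPM in the S100A4-11 steps and 408, 675 and 1055 CPM in the IgG steps. The share of cells with any of these UMIs was 23.5%, 26.4% and 23.9% in the S100A4-11 steps and 29.6%, 40.3% and 43.0% in the IgG steps. A few cells held much of this RNA. Of the UMIs of Col1a1, Col1a2, Col3a1, Pdgfrb and Acta2 in all Vwf-high cells, 5 cells held 69.7% in the S100A4-11 library. In the IgG library 5 cells held 47.0%. A limit of at most 1 UMI of these 5 genes together left 215 S100A4-11 and 240 IgG Vwf-high cells. In mesenchymal-gated cells Nr2f2 was detected in 77.0% and 79.2%, but Slc6a2 in 1.09% and 0.429%. Within the limit the top step still held 361 CPM of Nr2f2 and 694 CPM of Slc6a2 in S100A4-11 cells, and 266 and 793 CPM in IgG cells. The limit uses 5 of the 9 markers and still allows 1 UMI, and the part of wall cell RNA in these levels was not tested.

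Set against the other endothelial-gated cells of the same library, Vwf-high cells were higher in most venous and some vessel wall matrix and haemostasis genes. They were lower in most aerocyte genes. Of 11297 genes compared, 307 (2.72%) were higher and 356 (3.15%) were lower past the fold in both libraries; genes of the gate were left out. The rule selected the cells on Vwf, so these ratios describe what goes with it and were not tested. Of 16 venous genes measured, 15 were higher in both libraries, with a median log2 ratio of 2.34 in the S100A4-11 library and 2.21 in the IgG library, against 0.00 and 0.01 over all genes. Ephb4 was the exception, at 282 against 227 CPM in the S100A4-11 library and 278 against 206 CPM in the IgG library. Of 19 arterial genes 9 were higher and 0 lower.

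Ranked by the lower interval bound of the 2 libraries, Slc6a2 came first, at 270 CPM in Vwf-high against 1.20 CPM in other S100A4-11 cells, 226-fold (138 to 398), and at 278 against 1.87 CPM in IgG cells, 148-fold (106 to 214). Selp followed, at 94.8 against 1.79 CPM in S100A4-11 cells and 89.2 against 2.44 CPM in IgG cells. Both genes were at a few CPM or less in the other endothelial-gated cells. Car8, a catalytically inactive relative of the carbonic anhydrases, was at 126 against 0.448 CPM in S100A4-11 cells and 75.3 against 2.29 CPM in IgG cells. Cytl1, a secreted cytokine-like protein, was at 193 against 1.87 CPM and at 132 against 4.52 CPM. Cpe, a carboxypeptidase that processes peptide hormones, was at 230 against 5.53 CPM and at 186 against 10.6 CPM. In the S100A4-11 library these 3 genes were lower in the other endothelial-gated cells and higher in the Vwf-high cells than in the IgG library. The difference between the libraries was not tested. Atp13a3, a polyamine transporter, was at 389 against 31.0 CPM in S100A4-11 cells and 455 against 42.9 CPM in IgG cells. Olfm2, Stk32a, Cthrc1, Itgb4, Ch25h and AU021092 made up the rest of the 12 highest, with ratios of 17.4 to 36.1 in the S100A4-11 library and 12.9 to 50.3 in the IgG library.

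Among other venous genes Vcam1 was at 227 against 14.5 CPM in S100A4-11 cells and 161 against 21.3 CPM in IgG cells, and the serine protease Prss23 at 878 against 125 CPM and 824 against 156 CPM. Of 25 vessel wall matrix genes 8 were higher and 1, Emilin2, was lower in both libraries. Eln, which encodes elastin, was at 261 against 62.7 CPM in S100A4-11 cells and 299 against 74.6 CPM in IgG cells. Fbln5, which helps to assemble elastic fibres, was at 141 against 15.2 CPM and 155 against 26.7 CPM. Fbln2 was at 62.1 against 2.54 CPM and 41.5 against 4.57 CPM. Mgp, an inhibitor of calcification, was at 522 against 124 CPM and 533 against 207 CPM. The summed wall cell markers stood at 698 against 325 CPM in the S100A4-11 library but at 753 against 811 CPM in the IgG library. They reached 24.7% of Vwf-high against 15.5% of other cells in the S100A4-11 library, and 38.3% against 27.1% in the IgG library. How far wall cell RNA enters these ratios was not tested.

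Of 20 haemostasis and Weibel-Palade body genes 8 were higher and 0 lower in both libraries. Rab27a and Myrip, which tether Weibel-Palade bodies, were at 61.0 against 25.5 CPM and 79.2 against 28.8 CPM in S100A4-11 cells, and at 53.1 against 24.6 CPM and 75.7 against 29.4 CPM in IgG cells. Procr, the endothelial receptor of protein C, was at 41.8 against 10.5 CPM in S100A4-11 cells and 39.6 against 9.25 CPM in IgG cells. The other members past the fold were Selp, Plat, Anxa2, S100a10 and Entpd1. Nos3, the endothelial nitric oxide synthase, was at 63.7 against 18.7 CPM in S100A4-11 cells and 71.4 against 18.6 CPM in IgG cells. Vegfc, a growth factor of lymphatic vessels, was at 138 against 16.4 CPM and 151 against 20.7 CPM. Lyve1 was at 1237 against 641 CPM and 1119 against 570 CPM.

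Aerocyte genes were the clearest group on the lower side, with 10 of 12 lower and 0 higher and a median log2 ratio of -1.04 in the S100A4-11 library and -1.14 in the IgG library. Car4 was at 364 against 1079 CPM in S100A4-11 cells and 330 against 1051 CPM in IgG cells. Ednrb, an endothelin receptor, was at 60 against 136 CPM and 53.5 against 139 CPM. Emp2, a membrane protein, was at 410 against 974 CPM and 428 against 1046 CPM. The other genes among the 8 lowest were Lmntd1, Slc22a23, Pde8b, Tbx3os1, AW112010 and Cyp4b1. Among general capillary genes 2 of 11 were lower, Kit at 371 against 608 CPM in S100A4-11 cells and 370 against 579 CPM in IgG cells, and the lipase gene Lpl at 156 against 279 CPM and 162 against 245 CPM. Cd34, a sialomucin of capillary endothelium, was at 136 against 280 CPM and 133 against 270 CPM. Of 14 Notch genes 0 passed the fold in both libraries in either direction. Neutrophil RNA was lower as well, with S100a8 at 38.0 against 489 CPM in S100A4-11 cells and 56.3 against 366 CPM in IgG cells. After thinning every cell to 1000 UMIs, 173 genes were higher and 173 lower of 7278 compared, 2.38% each.

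**Figure D2:**
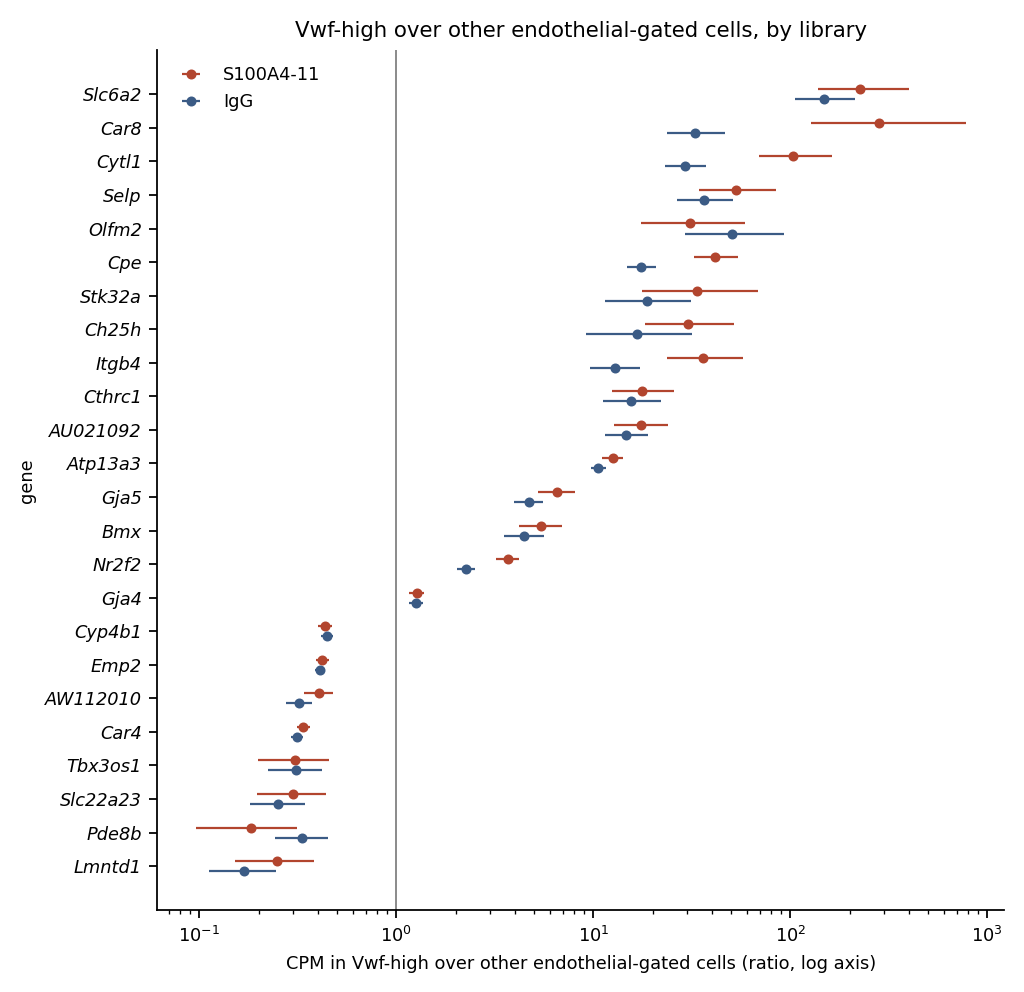
Ratio of CPM in Vwf-high over other endothelial-gated cells (log axis) for the 12 highest and 8 lowest genes and for 4 genes of the arterial and venous description, with S100A4-11 points above IgG points and exact counting intervals as bars. Slc6a2 lies at 226 and 148 and Car4 at 0.337 and 0.314, in S100A4-11 and IgG, and Gja4 lies close to 1 at 1.27 and 1.26.

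Arterial and venous genes were read cell by cell. A cell with at least 1 UMI of Gja5, Bmx or Gja4 and 0 of Nr2f2 and Slc6a2 is called arterial-marked, and the reverse venous-marked. Arterial-marked cells numbered 103 in the S100A4-11 library, or 43.1% (36.7 to 49.6) of Vwf-high cells, and 119 in the IgG library, or 39.9% (34.3 to 45.7), a ratio of 1.08 (0.821 to 1.42). Venous-marked cells numbered 37, or 15.5% (11.1 to 20.7), in the S100A4-11 library and 60, or 20.1% (15.7 to 25.1), in the IgG library, a ratio of 0.769 (0.496 to 1.18). Both intervals include 1. Cells with both kinds of gene made up 28.9% and 29.9%, and cells with neither 12.6% and 10.1%, in the S100A4-11 and IgG libraries. Cells with both kinds were the deepest, with medians of 8872 and 13204 UMIs, and after thinning to 1000 UMIs they made up 2.58% of S100A4-11 and 1.35% of IgG cells. At that depth arterial-marked cells made up 33.9% of S100A4-11 and 24.9% of IgG cells, a ratio of 1.36 (0.978 to 1.89), and venous-marked cells 20.6% and 23.6%, a ratio of 0.874 (0.592 to 1.28).

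Gja4 was the least specific of the marking genes, since it was detected in 60.3% of S100A4-11 and 61.4% of IgG Vwf-high cells but also in 43.4% and 39.7% of the other endothelial-gated cells. With Gja5 and Bmx alone as arterial genes, 72 S100A4-11 and 95 IgG cells were arterial-marked, and 83 and 124 were venous-marked. Which of these classes was the larger thus depended on the use of Gja4. Slc6a2 seldom met Gja5 or Bmx in a cell, 3 genes that were rarer than Gja4 in the other endothelial-gated cells. Gja5 or Bmx without Slc6a2 was found in 86 S100A4-11 and 110 IgG cells, Slc6a2 without either in 68 and 99 cells, and both kinds in 9 and 10 cells, or 3.77% and 3.36%. Bmx also had UMIs in 15% and 14.4% of neutrophil-gated cells. Nr2f2 was detected in 69.1% of S100A4-11 and 63.6% of IgG cells with Slc6a2, and in 16.3% and 13.6% of those with Gja5 or Bmx. Efnb2 followed the arterial genes, at 988 CPM in S100A4-11 and 1195 CPM in IgG cells with Gja5 or Bmx, against 38.1 and 90.5 CPM in cells with Slc6a2. Selp followed the venous gene, at 21.0 CPM in S100A4-11 and 48.7 CPM in IgG cells with Gja5 or Bmx, against 187 and 136 CPM in cells with Slc6a2. Vwf was lower in cells with Gja5 or Bmx, at 1426 and 1541 CPM, than in cells with Slc6a2, at 2843 and 2243 CPM. Gpihbp1 did not divide them so, at 1387 CPM in S100A4-11 and 1466 CPM in IgG cells with Gja5 or Bmx, against 1735 and 1937 CPM in cells with Slc6a2.

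Arterial-marked and venous-marked cells differed in many genes that took no part in the marking. Of 3770 genes compared, 244 (6.47%) were higher and 117 (3.10%) were lower past the fold in arterial-marked cells of both libraries. Of 11 arterial genes besides the marking ones 8 were higher, with median log2 ratios of 1.5 in the S100A4-11 and 2.19 in the IgG library. Of 10 venous genes 9 were lower, with medians of -3.20 and -3.17, against 0.01 and 0.04 over all genes. Groups of cells made from marking genes are a description, so no test was made.

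Cxcl12 (chromosome 6, 117168535 to 117181367, plus strand), the chemokine ligand of CXCR4, was at 2029 CPM in arterial-marked against 12.8 CPM in venous-marked cells of the S100A4-11 library, 158-fold (54.0 to 767) from 3 venous UMIs. In the IgG library it was at 2833 against 52.8 CPM, 53.6-fold (34.3 to 89.2). Its scavenging receptor Ackr3 was opposite, at 63.7 against 565 CPM in S100A4-11 cells and 66.7 against 667 CPM in IgG cells. The ligand was thus on the arterial side and the scavenger on the venous side in both libraries. Sema3g, a guidance ligand of arterial endothelium, was at 439 against 12.8 CPM in S100A4-11 cells and 611 against 16.7 CPM in IgG cells. Efnb2 was at 835 against 60 CPM, 13.9-fold (8.24 to 25.6), and at 1294 against 91.7 CPM, 14.1-fold (9.98 to 20.6). Prkg1, the kinase activated by cyclic GMP, was at 1008 against 55.7 CPM and 1396 against 131 CPM. Plat, which encodes tissue plasminogen activator, was at 207 CPM in arterial-marked S100A4-11 and 342 CPM in arterial-marked IgG cells, against 4.28 and 8.34 CPM in venous-marked cells. Esr2, an oestrogen receptor, and Esm1, the proteoglycan endocan, had 0 UMIs in venous-marked cells of both libraries. Against a floor of 3 UMIs per library Esr2 was at least 10.5-fold higher in S100A4-11 and at least 22.9-fold higher in IgG arterial-marked cells, and Esm1 at least 9.42-fold and at least 24.1-fold higher. Atp13a3, Pcsk5 and Slc45a4 completed the 10 highest.

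On the venous side, Prss23 was at 173 CPM in arterial-marked against 2176 CPM in venous-marked S100A4-11 cells, and at 210 against 2196 CPM in IgG cells. Lrg1, a secreted glycoprotein that modifies TGF-beta signalling, was at 65.0 against 1259 CPM in S100A4-11 cells and 57.9 against 876 CPM in IgG cells. Cpe was at 45.5 against 672 CPM and 32.7 against 673 CPM. Vegfc was at 40.3 against 321 CPM and 23.9 against 364 CPM, whereas Vegfa was at 438 against 68.5 CPM and 564 against 63.9 CPM. The 2 growth factor genes therefore lay on opposite sides in both libraries. Ptgis, the prostacyclin synthase, was at 27.3 against 321 CPM and 29.0 against 375 CPM, and Ptgs1, the cyclooxygenase upstream of it, at 48.1 against 266 CPM and 13.8 against 236 CPM. Vcam1 was at 84.4 against 578 CPM and 180 against 389 CPM, Selp at 18.2 against 287 CPM and 30.2 against 178 CPM, and Icam1 at 218 against 411 CPM and 252 against 528 CPM. Dnm3, Rgs5, Lbp and Gm30382 were the other genes among the 10 lowest.

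Signalling genes divided in the same way. Of 8 Notch genes 5 were higher in arterial-marked cells and 0 lower. The ligand Dll4 was at 360 against 51.4 CPM in S100A4-11 cells and 414 against 38.9 CPM in IgG cells. The receptor Notch1 was at 399 against 150 CPM and 514 against 150 CPM, and the target gene Hey1 at 438 against 64.2 CPM and 568 against 77.8 CPM. Of 15 TGF-beta and BMP genes 8 were higher and 0 lower. Smad6, an inhibitor induced by BMP signals, was at 886 against 77.1 CPM in S100A4-11 cells and 1154 against 217 CPM in IgG cells. The ligand Bmp6 was at 560 against 223 CPM and 593 against 203 CPM. Of 13 immediate early genes 5 were lower and 0 higher, among them Fos at 221 against 672 CPM and 274 against 450 CPM, and Atf3 at 123 against 411 CPM and 86.9 against 147 CPM. Of 13 heat shock genes 2, Hspa1a and Hspa1b, were lower and 0 higher, with Hspa1a at 149 against 591 CPM and 243 against 400 CPM. Of 10 general capillary genes 3, Kit, Lpl and Tmem100, were higher in arterial-marked cells and 0 lower. Kit was at 501 against 184 CPM in S100A4-11 and 475 against 181 CPM in IgG cells.

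The summed wall cell markers were at 79.3 CPM in arterial-marked and 120 CPM in venous-marked S100A4-11 cells, and at 126 and 1440 CPM in those of the IgG library. Rgs5, known from pericytes, was at 14.3 against 197 CPM in S100A4-11 cells and 6.29 against 247 CPM in IgG cells. Within the limit on mesenchymal UMIs it was at 14.5 against 210 CPM and 7.11 against 287 CPM. Each of the 20 genes that this comparison names kept its direction within the limit in both libraries, with Lrg1 at 65.8 against 1308 CPM and 48.4 against 930 CPM, and Cxcl12 at 2002 against 9.34 CPM and 2765 against 45.2 CPM.

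**Figure D3:**
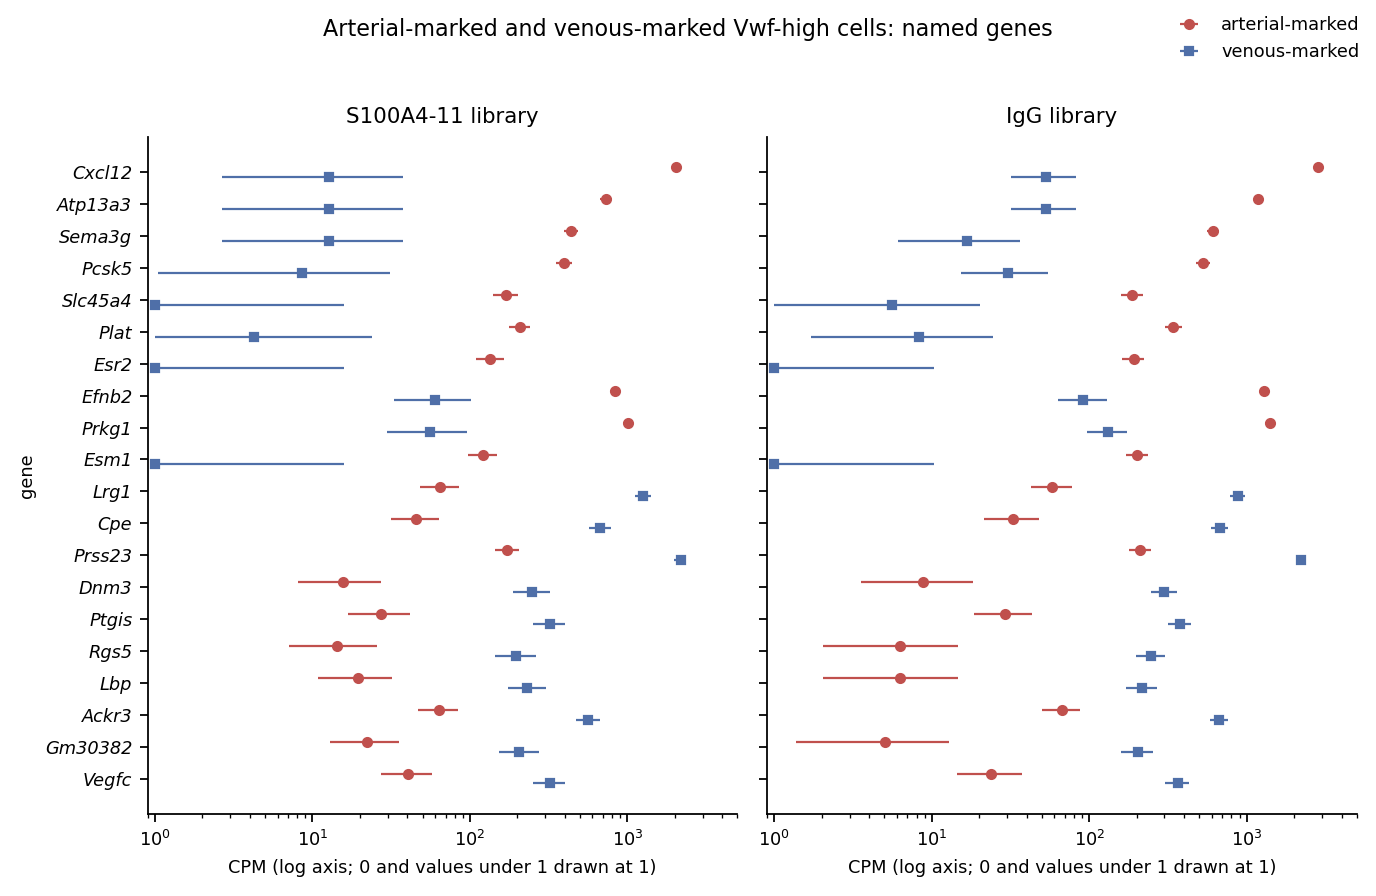
Levels in CPM (log axis) of the 10 highest and 10 lowest genes in arterial-marked (circles) and venous-marked (squares) Vwf-high cells, S100A4-11 library on the left and IgG library on the right, with exact Poisson intervals as bars. Cxcl12 stands at 2029 against 12.8 CPM and at 2833 against 52.8 CPM, and Prss23 at 173 against 2176 CPM and 210 against 2196 CPM.

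Between the libraries, S100A4-11 Vwf-high cells were lower past the fold than IgG Vwf-high cells in 7 of 16 glucocorticoid-induced and 3 of 15 heat shock genes, and higher in 2 of 17 venous genes, while the arterial and venous marking genes were close. Of 8856 genes with at least 50 UMIs, 122 (1.38%) were higher and 355 (4.01%) were lower past the fold in S100A4-11 cells. Members of lists needed only 20 UMIs, and of the 10778 genes at that limit 193 (1.79%) were higher and 489 (4.54%) lower, and 55.2% had a ratio below 1. These shares are the background for the lists and not a count of changed genes. The like shares, higher and lower, were 2.55% and 3.92% in arterial-marked cells, 2.60% and 3.03% in venous-marked cells, 2.58% and 5.43% in cells with 15 or more Vwf UMIs, and 1.74% and 2.67% within the limit on mesenchymal UMIs. Gja5 was at 89.4 CPM in S100A4-11 and 87.7 CPM in IgG cells, a ratio of 1.02 (0.830 to 1.25). Slc6a2 was at 270 and 278 CPM, 0.971 (0.865 to 1.09), and Nr2f2 at 182 and 170 CPM, 1.07 (0.927 to 1.24). Gja4 was at 328 and 275 CPM, 1.19 (1.07 to 1.33), and Bmx at 60.5 and 46.2 CPM, 1.31 (1.0 to 1.71). All 5 ratios lay within 1.5-fold. Vwf, which chose the cells, was at 1852 CPM in S100A4-11 and 1658 CPM in IgG cells. Fewer cells of a type and less RNA per cell cannot be told apart for genes that only some Vwf-high cells carry.

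All 16 measured glucocorticoid-induced genes had a ratio below 1, and 7 of them were lower past the fold. Their median log2 ratio was -0.56 in Vwf-high and -0.47 in other endothelial-gated cells, against -0.03 over 10778 genes in Vwf-high cells. Zbtb16 (chromosome 9, 48654297 to 48836222, minus strand), a zinc finger repressor, was at 148 CPM in S100A4-11 and 288 CPM in IgG cells, 0.515 (0.447 to 0.592), with UMIs in 118 and 191 cells. In the other endothelial-gated cells it was at 180 and 360 CPM, 0.50 (0.477 to 0.523). In neutrophil-gated cells it was at 13.5 and 30.1 CPM, 0.448 (0.378 to 0.528). Tsc22d3, which encodes the anti-inflammatory protein GILZ, was at 214 and 322 CPM, 0.664 (0.588 to 0.749). Fkbp5, a co-chaperone of the glucocorticoid receptor, was at 34.3 and 56.3 CPM, 0.609 (0.447 to 0.823). Mt1, a metallothionein, was at 23.0 and 78.0 CPM, 0.295 (0.207 to 0.412). Adamts9, a matrix protease, was at 96.9 and 177 CPM, 0.548 (0.458 to 0.652), and the kinase gene Sgk3 at 18.7 and 37.6 CPM. Angptl4 was the seventh. Lower values were therefore shared by a transcription factor, a chaperone, a metal-binding protein and a protease gene, and by the other endothelial-gated cells. In arterial-marked cells the list's median was -0.60, and in venous-marked cells it was -0.17.

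Of 15 heat shock genes 14 had a ratio below 1 and 3 were lower past the fold, with a median of -0.35 in Vwf-high and -0.47 in other endothelial-gated cells. Hsph1 was at 77.1 CPM in S100A4-11 and 134 CPM in IgG cells, 0.576 (0.471 to 0.702), and Dnajb4 and Cryab were the others. Hsph1 no longer passed the fold in cells with 5 or more Vwf UMIs, at 0.695 (0.554 to 0.868). With every cell weighing the same it was at 0.695 and did not pass either. In arterial-marked cells 7 of 15 were lower and the median was -0.59, whereas in venous-marked cells 9 of 14 had a ratio above 1, 0 passed the fold and the median was 0.14. The difference between these classes was not tested. Hspa1a was at 464 and 445 CPM, 1.04 (0.954 to 1.14), but at a ratio of 0.709 in the other endothelial-gated cells. Of 19 immediate early genes 17 had a ratio below 1 and 1, Fosb at 35.3 and 70.2 CPM, was lower past the fold, with a median of -0.15. That count lies near the background share. Dusp1, a phosphatase of MAP kinases, was at 365 and 525 CPM, 0.694 (0.632 to 0.762). Fos was at 406 and 502 CPM. The list turned in venous-marked cells, where 12 of 14 had a ratio above 1, 4 were higher and 1 lower past the fold, and the median was 0.52, with Fos at 672 and 450 CPM, 1.49 (1.19 to 1.87). Within the limit on mesenchymal UMIs 9 of 19 had a ratio above 1 and the median was -0.04. Among cells with 15 or more Vwf UMIs 9 of 19 were lower and the median was -0.58.

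Of 24 interferon-gamma and class I antigen presentation genes, 20 had a ratio below 1, with a median of -0.27 in Vwf-high and -0.37 in other endothelial-gated cells. Gbp5 and Nlrc5 were lower past the fold, a count of 2 that is close to the background share. Gbp5, a guanylate-binding protein, was at 26.8 CPM in S100A4-11 and 54.7 CPM in IgG cells, 0.489 (0.347 to 0.680), or 0.706 (0.424 to 1.14) in cells with 15 or more Vwf UMIs. The class I heavy chain H2-K1 was at 1661 and 2019 CPM, 0.823 (0.787 to 0.860), and its light chain B2m at 1293 and 1572 CPM, 0.822 (0.782 to 0.865). Class I transcripts were thus lower by less than the fold. Of 19 type I interferon genes 11 had a ratio above 1, with a median of 0.08. Usp18, a negative regulator of this response, was at 24.6 and 10.9 CPM, 2.27 (1.39 to 3.77), but its ratio was 1.06 (0.430 to 2.48) in cells with 15 or more Vwf UMIs. Ifi27l2a was at 123 and 74.5 CPM, 1.65 (1.36 to 2.01), whereas Oas1a was at 16.1 and 26 CPM, 0.618 (0.388 to 0.964). Type I interferon genes thus lay on both sides of 1.

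Of 17 venous genes 13 had a ratio above 1, 2 were higher past the fold and 0 lower. The median was 0.09 in Vwf-high cells, against -0.37 in other endothelial-gated cells. Ackr1 (chromosome 1, 173331886 to 173333750, minus strand), the chemokine-binding receptor of venular endothelium, was at 46.0 CPM in S100A4-11 and 14.0 CPM in IgG cells, 3.30 (2.21 to 5.01). It had UMIs in 19 and 16 cells, and 5 cells held 65.1% and 66.7% of them. In the other endothelial-gated cells it had 0 and 3 UMIs. Car8 was at 126 and 75.3 CPM, 1.68 (1.38 to 2.04), and Vcam1 at 227 and 161 CPM, 1.41 (1.23 to 1.62). For Vcam1, 5 cells held 49.3% of the UMIs in the S100A4-11 library and 26.3% in the IgG library. Its ratio was at 0.682 (0.572 to 0.811) in the other endothelial-gated cells, and the difference between these ratios was not tested. In cells with 15 or more Vwf UMIs 5 of 17 venous genes were higher and the median was 0.39. Within the limit on mesenchymal UMIs Car8 was at 143 and 101 CPM, which no longer passed the fold.

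Of 20 arterial genes 14 had a ratio below 1 and 1, Nebl, was lower past the fold, at 38.0 CPM in S100A4-11 and 136 CPM in IgG cells, with a median of -0.12. The share past the fold lies near the background, and within the limit on mesenchymal UMIs 0 of 18 passed the fold. In cells with 15 or more Vwf UMIs the median was 0.07. Efnb2 was at 473 and 594 CPM, 0.797 (0.733 to 0.866). In arterial-marked cells 17 of 18 arterial genes had a ratio below 1, against 53.7% of all genes there. Of these 18 genes 2 were lower past the fold, and the median was -0.40. Within arterial-marked cells Efnb2 was at 835 and 1294 CPM, 0.645 (0.584 to 0.713), and Cxcl12 at 2029 and 2833 CPM, 0.716 (0.671 to 0.765). Of 15 Notch genes 13 had a ratio below 1, and the ligand Dll1 passed the fold, at 53.5 and 86.1 CPM, 0.622 (0.486 to 0.791). Nrarp, a Notch target that dampens the pathway, was at 82.4 and 123 CPM, 0.672 (0.551 to 0.818), while Dll4 was at 213 CPM in both libraries. Of 13 Notch genes measured in arterial-marked cells 10 had a ratio below 1 and 4 were lower past the fold, with a median of -0.36. Klf2, a transcription factor induced by flow, was at 869 and 1147 CPM, 0.757 (0.712 to 0.805). The other flow and vasoactive genes were mixed, 10 of 19 above 1 and 0 past the fold. Arterial-marked and venous-marked cells differed in Tm4sf1, a tetraspanin-like surface protein. It was at 1588 and 2141 CPM, 0.741 (0.688 to 0.798), in S100A4-11 and IgG arterial-marked cells, and at 1572 and 534 CPM, 2.94 (2.47 to 3.52), in venous-marked cells, and this difference was not tested.

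In the haemostasis list 13 of 20 genes had a ratio above 1 and the median was 0.04. The thrombin receptor F2r was at 32.7 CPM in S100A4-11 and 58.6 CPM in IgG cells, 0.557 (0.407 to 0.755), or 0.666 (0.435 to 1.01) within the limit on mesenchymal UMIs, and Thbs1, thrombospondin, at 24.1 and 46.6 CPM. Plat was at 101 and 145 CPM, 0.695 (0.581 to 0.831). Selp was at 94.8 and 89.2 CPM, 1.06 (0.868 to 1.30), and Thbd, thrombomodulin, at 878 and 853 CPM, 1.03 (0.965 to 1.10). F3, tissue factor, was the member past the fold on the higher side, at 12.8 CPM in S100A4-11 and 5.04 CPM in IgG cells, 2.55 (1.25 to 5.45).

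Of 24 vessel wall matrix genes 22 had a ratio below 1 and 3 were lower past the fold, with a median of -0.22 in Vwf-high and -0.25 in other endothelial-gated cells. Fn1, fibronectin, was at 185 CPM in S100A4-11 and 308 CPM in IgG cells, 0.600 (0.527 to 0.682), and the laminin chain Lama4 at 36.4 and 61.3 CPM, though at a ratio of 0.893 (0.599 to 1.33) within the limit on mesenchymal UMIs. Loxl2 was the other. Of 12 metastatic niche factors 10 had a ratio below 1 and 4 were lower past the fold, with a median of -0.65. The 4 were Postn, Serpina3n, Fn1 and Angptl4, of which Fn1 and Angptl4 also stand in lists above. Postn, the matricellular protein periostin, was at 20.9 and 91.9 CPM, 0.227 (0.158 to 0.320), with UMIs in 8 and 29 cells. Its level was 20.3% of that in mesenchymal-gated cells, close to the limit of 20% for ranked genes. Lrg1 was at 496 and 375 CPM, 1.32 (1.21 to 1.45), on the higher side. At 15 or more Vwf UMIs the median of the niche list was 0.10.

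Wall cell markers lay on both sides of 1. Col1a1 was at 26.2 CPM in S100A4-11 and 73.7 CPM in IgG Vwf-high cells, and Pdgfrb at 15.5 and 47.7 CPM. Of the 9 wall cell markers, Col1a1, Col1a2, Col3a1, Pdgfrb and Cox4i2 were lower past the fold and Acta2 was higher. The 9 summed to 698 and 753 CPM and reached 24.7% and 38.3% of cells, and the markers of mesothelium were at 0, 4 of 4, in both libraries. Cells over the limit of 1 mesenchymal UMI were 10.0% of S100A4-11 and 19.5% of IgG Vwf-high cells. Within the limit the matrix median was -0.08 and Postn had a ratio of 0.127 (0.0142 to 0.533). Cox4i2, known from pericytes and one of the 9 markers, had 0.307 (0.136 to 0.634), and Gucy1a1 0.323 (0.106 to 0.833). Higd1b, also known from pericytes, had 0.538 (0.0870 to 2.52) and no longer passed the fold. The count of genes lower past the fold was then 189 of 7822 (2.42%). The part of wall cell RNA in the matrix values was not tested. Summed markers of mononuclear phagocytes were at 140 CPM in S100A4-11 and 76.8 CPM in IgG Vwf-high cells, of T and B cells at 48.2 and 11.6 CPM, of neutrophils at 187 and 228 CPM, of alveolar epithelium at 560 and 663 CPM, and of airway epithelium at 11.8 and 77.2 CPM. Phagocyte markers nevertheless reached fewer S100A4-11 cells, 15.5% against 24.5% of IgG cells, and airway markers reached 6.28% against 42.6%. Their part in the gene ratios was not tested either.

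Among all genes, the 12 highest in S100A4-11 cells also included Fabp4, a fatty acid binding protein, at 97.4 CPM against 32.6 CPM in IgG cells, 2.99 (2.30 to 3.92). In it 5 cells held 75.8% of the UMIs in the S100A4-11 and 63.1% in the IgG library, and it was at 2.17 (1.95 to 2.41) in the other endothelial-gated cells. Its ratio was 1.61 (1.17 to 2.23) in cells with 5 or more Vwf UMIs and 1.15 (0.791 to 1.67) in cells with 15 or more. Ch25h, which makes an antiviral oxysterol, was at 45.0 and 14.7 CPM, 3.05 (2.06 to 4.60). Efna5 was at 28.9 and 11.3 CPM and Cc2d1a at 20.3 and 7.37 CPM. Cd200, a surface ligand that restrains myeloid cells, was at 400 and 233 CPM, 1.72 (1.54 to 1.92), and at 1.49 in the other endothelial-gated cells. Cdk8 was at 12889 and 8470 CPM, 1.52 (1.49 to 1.55), and at 1.41 in the other endothelial-gated cells. The chromatin gene Jarid2, Gm16740 and Pf4 passed the fold as well, and Il31ra and Gphn, at ratios of 1.48 and 1.45, did not reach it. Cdk8 and Jarid2 no longer passed with every cell weighing the same, at 1.23 and 1.34, nor without the 5 richest cells, at 1.31 and 1.42. Pf4 belongs to platelets, and 5 cells held 84.8% of its UMIs in the S100A4-11 library. Without its 5 richest cells its ratio turned to 0.700 (0.239 to 1.85), and with 0 Ptprc, Epcam and Sftpb UMIs to 0.843 (0.423 to 1.63). Cd200 was at 1.49 within the limit on mesenchymal UMIs.

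At the low end, Tafa1 was at 1.07 CPM in S100A4-11 and 20.6 CPM in IgG cells, 0.0521 (0.00615 to 0.198). Higd1b was at 7.49 and 45.0 CPM, and Cox4i2 at 41.8 and 122 CPM, 0.342 (0.263 to 0.439). Gucy1a1 and Pde5a, a synthase subunit and a phosphodiesterase of cyclic GMP, were at 43.9 and 115 CPM and at 48.2 and 107 CPM. Ltbp2 was at 15.5 and 50 CPM, and Pdzd2 at 121 and 256 CPM. Within the limit on mesenchymal UMIs Pdzd2 had a ratio of 0.961 (0.772 to 1.20), Pde5a 0.807 (0.509 to 1.27), Nr1h3 0.792 (0.368 to 1.67) and Ltbp2 1.08 (0.0137 to 84.4), none of which passed the fold. Tafa1 had 0.565 (0.0108 to 7.03) in cells with 15 or more Vwf UMIs. Slit3, a guidance ligand, was at 81.4 and 158 CPM, 0.517 (0.426 to 0.624), but at a ratio of 0.885 with every cell weighing the same. Gm35533 and Nr1h3 completed the 12 lowest with Zbtb16 and Postn. Several of these genes are known from pericytes and smooth muscle. Of 8 wall cell markers measured, 5 were lower past the fold and 3 had a ratio above 1, with Acta2 higher past the fold. The part of wall cell RNA in these genes was not tested.

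**Figure D4:**
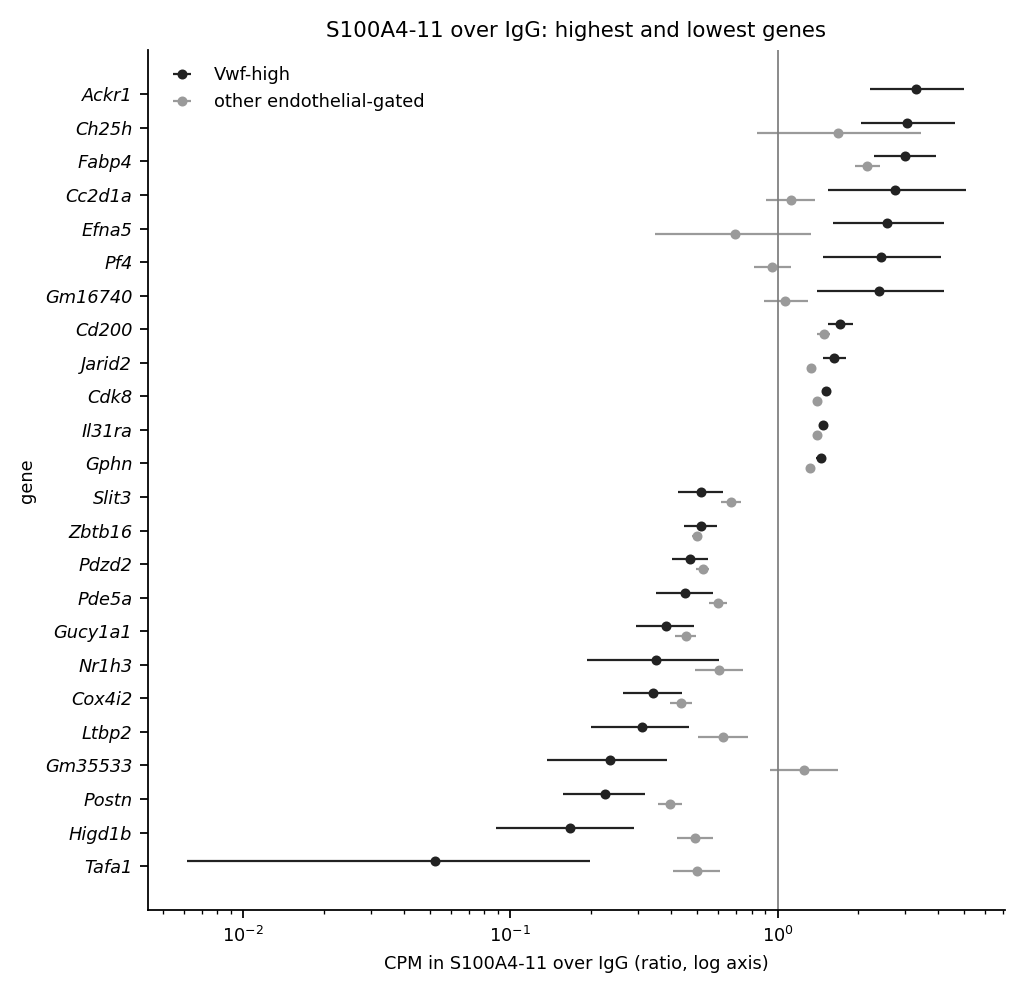
Ratio of CPM in S100A4-11 over IgG (log axis) for the 12 highest and 12 lowest genes of the Vwf-high cells, with Vwf-high cells (black) above other endothelial-gated cells (grey) and exact counting intervals as bars; Ackr1 has no grey point because its S100A4-11 value there is 0. Zbtb16 lies at 0.515 in Vwf-high and 0.50 in other endothelial-gated cells, and Ackr1 at 3.30 in Vwf-high cells.

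The medians of the remaining lists lay near 0. The median log2 ratio was 0.01 for leukocyte adhesion and chemokines, 0.00 for general capillary genes, -0.07 for TGF-beta and BMP signalling, -0.08 for the VEGF and angiopoietin axis, -0.03 for the S100 family with S100A4 binding partners, and 0.10 for proliferation genes. Lower past the fold in S100A4-11 cells were Pgf and Angpt1, 2 of 16 VEGF genes, and Ager and Egfr, 2 of 12 S100 genes. Mki67, 1 of 9 proliferation genes, was lower too, and Ackr1, 1 of 18 adhesion genes, was higher. Over all genes at the lists' UMI limit 4.54% were lower and 1.79% higher. Ager is also 1 of the 6 alveolar epithelium markers, of which 5 were measured. All 5 had a ratio below 1 and 2 passed the fold, with a median of -0.81. The part of epithelial RNA in Ager was not tested. Aerocyte genes had a median of 0.18, with 10 of 12 above 1 and Chst1 past the fold at 21.9 CPM in S100A4-11 and 11.3 CPM in IgG cells. In arterial-marked cells 12 of 12 aerocyte genes were above 1, 7 passed the fold and the median was 0.68. At 15 or more Vwf UMIs their median was -0.56, with 4 of 10 lower past the fold. Only 2 genes of the lymphatic list were measured.

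**Figure D5:**
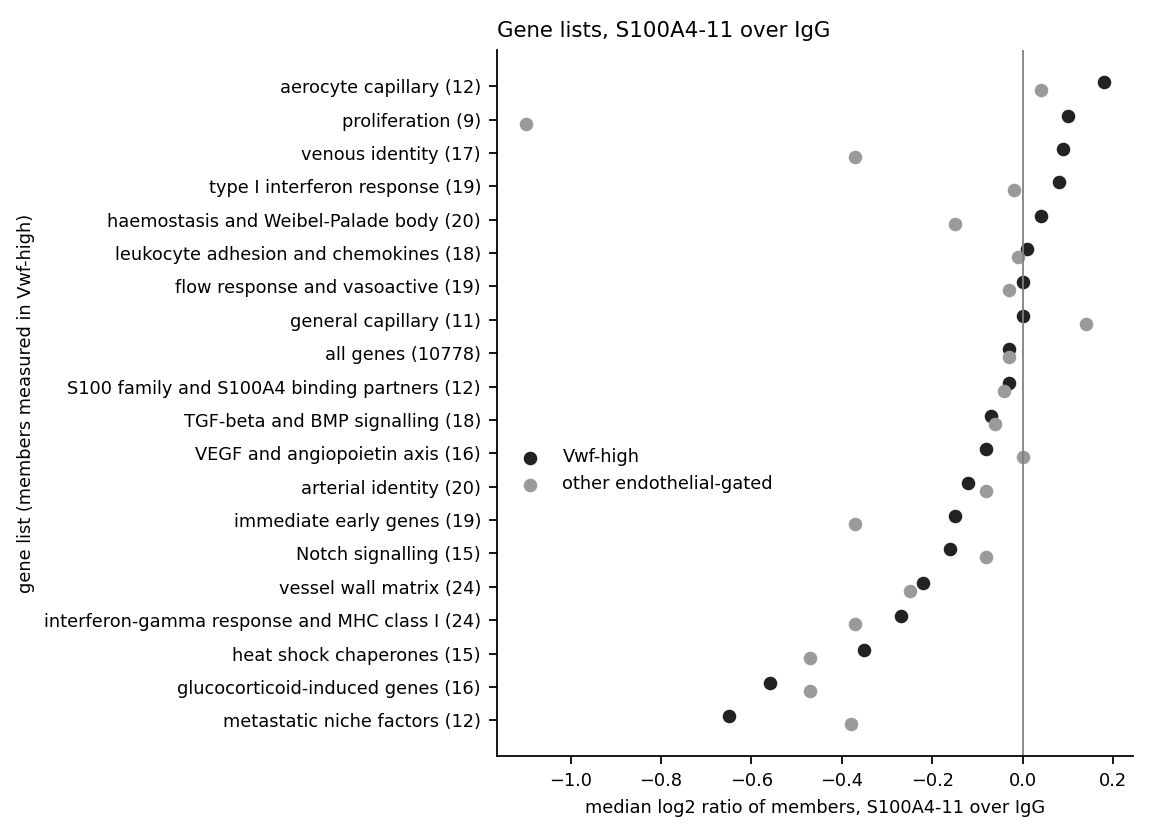
Median log2 ratio of S100A4-11 over IgG for each gene list, with the number of members measured in Vwf-high cells in brackets, in Vwf-high (black) and other endothelial-gated cells (grey). Glucocorticoid-induced genes lie at -0.56 and -0.47, and venous genes at 0.09 in Vwf-high and -0.37 in other endothelial-gated cells.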

How the data were processed

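The authors deposited, for each library, a 10x Genomics matrix of whole UMI counts over 32286 features, per the file headers. Per the labels' protocols, cells were captured with a 10x Genomics 5' kit and sequenced on DNBseq; per the submitters' processing notes, Cell Ranger 7.1.0 and build mm10 were used. Cells were selected by the rule given above. The rule, the gene lists and the named genes were chosen with earlier results of these data known, and the step of 15 Vwf UMIs and the limit on mesenchymal UMIs within a library were set after seeing the data.

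UMIs were summed over the cells of a class and divided by their total (python 3.11.15, numpy 2.4.6, scipy 1.17.1, pandas 2.3.3). List medians used members with at least 20 UMIs and a pseudocount of 0.5. Named genes are the 12 highest and 12 lowest (8 lowest for Vwf-high over other cells, 10 each for arterial over venous) by how far the interval stays from 1, taking the weaker library within libraries. They needed at least 50 UMIs, 20 CPM in a library and 20% of the highest level in any reference gate of other cell types. Mitochondrial, ribosomal protein, haemoglobin, antigen receptor and gate genes were not ranked. From each of the 20 lists up to 4 members were added, and other list members are named where they pass the fold or complete a pathway, chosen after their values were seen. Doublets were called with Scrublet in scanpy 1.11.5. No correction for free RNA was made. TMM factors came from edgeR 4.0.16. Gene positions came from GENCODE M21. The steps were tested on simulated data. With 1 library a group, an interval shows counting error and nothing of the spread between animals. PCR copies were collapsed by UMI. Of the list members past the fold, 1 is not reported here.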

Additional observations from a re-analysis of the deposited data

Results flagged for a closer look

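Car8 had a ratio of S100A4-11 over IgG of 1.68 (1.38 to 2.04) in Vwf-high cells and of 0.196 (0.0683 to 0.462) in other endothelial-gated cells, where it had 6 and 44 UMIs, so the cell classes went opposite ways; the difference was not tested.

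Chst1, a sulphotransferase gene, had a ratio of 3.24 (1.34 to 8.99) in arterial-marked cells, from 22 S100A4-11 and 7 IgG UMIs, while venous-marked cells held 0 and 8 UMIs; the difference was not tested.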

How the results depend on the processing

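No paired analysis was possible because each group had 1 library. Of 70 alternative values for shares and counts, 59 stayed close to those reported and 11 did not. The ratio of Vwf-high shares was 1.26 after thinning to 1000 UMIs. Against 122 higher (1.38%) and 355 lower (4.01%) of 8856 genes in S100A4-11 cells, 392 and 669 were found with every cell weighing the same, where no interval applies. There were 65 higher of 7912 genes (0.822%) without the 5 cells of each library richest in a gene. With 1 UMI in each library as the limit, 245 of 14633 (1.67%) were higher. With at least 100 UMIs, 48 (0.713%) were higher and 234 (3.48%) lower of 6732. With at most 1 mesenchymal UMI, 189 of 7822 (2.42%) were lower. For Vwf-high over other endothelial-gated cells, thinning gave 173 higher and 173 lower of 7278 genes, 2.38% each. For arterial-marked over venous-marked cells, Gja5 and Bmx alone as arterial genes gave 185 lower of 4297 (4.31%). Fewer genes are compared after thinning and at higher limits, and more with 1 UMI in each library as the limit. Directions turned for Pf4, at 0.843 with 0 Ptprc, Epcam and Sftpb UMIs and 0.700 without its 5 richest cells, for Ltbp2, at 1.08 with at most 1 mesenchymal UMI, and for Chst1, at 0.726 from 15 Vwf UMIs; the cause was not tested. Of 35 named genes past the fold between S100A4-11 and IgG, 22 remained with at most 1 mesenchymal UMI, 24 from 15 Vwf UMIs, 27 with every cell weighing the same and 31 without the 5 richest cells. Ackr1, Adamts9, Cc2d1a, Ch25h, Cox4i2, Efna5, Gm35533, Gucy1a1, Postn, Sgk3 and Zbtb16 passed it in each of the alternatives run for single genes. Of these, Cox4i2, Gucy1a1 and Postn had wide intervals within the limit on mesenchymal UMIs. The glucocorticoid median ran from -0.70 to -0.39, with 0 members higher and 6 to 8 lower. TMM and median-of-ratios scaling took Tsc22d3 under the fold. The depth of 1868037 S100A4-11 and 2577633 IgG UMIs limits genes under 20 CPM.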
